A study of Caenorhabditis elegans with 2 samples.

Results

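The genes of the 26S proteasome, the particle that degrades ubiquitin-tagged proteins, were examined for binding of MDL-1 at their promoters in L1 larvae of Caenorhabditis elegans. The members were all protein-coding genes in the WBcel235 annotation of Ensembl release 115 whose symbol starts with pas-, pbs-, rpn- or rpt-, which gave 33 of 19973 protein-coding genes on the nuclear chromosomes. Of these, 14 encode the core particle (7 pas genes for the alpha rings and 7 pbs genes for the beta rings) and 19 encode the regulatory particle (6 rpt genes for its ATPases and 13 rpn genes for the rest). Chromatin immunoprecipitation and sequencing (ChIP-seq) of an eGFP-tagged MDL-1 had been carried out on whole larvae of mixed sex in 1 group of 2 biological replicates, and no other group was analysed here. The strain was OP106, which carries the unc-119(ed3) mutation on chromosome III and the transgene wgIs106 for the tagged protein, so all values are those of a tagged protein made from a transgene. The files list peaks and hold no read totals, so the sequencing depth behind each peak is unknown.

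In the proteasome, a barrel of alpha and beta rings encloses the protein-cutting sites, and a regulatory particle on its end recognises ubiquitin chains, removes them and threads the protein in with a ring of ATPases. MDL-1 belongs to the MAD family of helix-loop-helix leucine zipper proteins, which bind the E-box CACGTG in pairs with a MAX-like partner and are known as repressors of transcription. In C. elegans the proteasome genes are known as targets of the activator SKN-1, whose binding site ends in TGTCAT or TATCAT. All L1 tissues were sampled together, so a peak found in few cells and a weak peak in many cannot be told apart.

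Of the 33 proteasome genes, 16 had a summit of the authors' optimal list in the promoter window, taken as 1000 bp before and 200 bp after the annotated 5' end. This was 48.5% (exact Clopper-Pearson 95% interval 30.8 to 66.5%), against 12.8% of all protein-coding genes. The optimal list was derived by the authors with a test of irreproducible discovery rate (IDR) between the replicates. It holds the 3870 peaks of highest score in the pooled replicates, and not all of these were found in both replicates. The regulatory particle had summits at 12 of 19 genes (63.2%, interval 38.4 to 83.7%) and the core particle at 4 of 14 (28.6%, interval 8.39 to 58.1%). These intervals overlap, and the difference between the particles was not tested. Intervals cover counting error only, and genes that share an intergenic region are not independent.

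**Figure D1:**
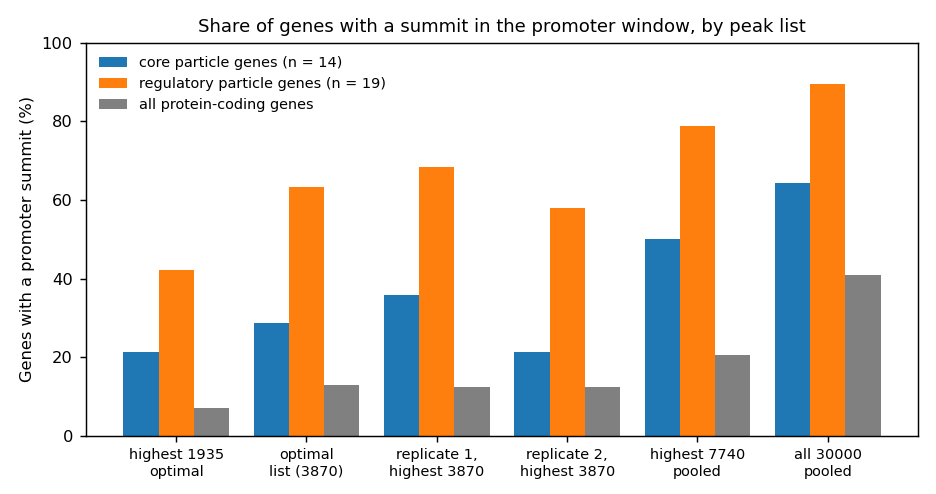
Share of genes (percent, vertical axis) with a summit in the promoter window, for the core particle (blue, 14 genes), the regulatory particle (orange, 19 genes) and all protein-coding genes (grey), in 6 peak lists or parts of them. In the optimal list the shares were 28.6%, 63.2% and 12.8%, and in each of the 6 the regulatory particle stood highest and all genes lowest.

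The DNA under the summits is shown for the 8 member peaks of highest score outside 1 chromosome whose sequence is not printed here, and for rpn-12, which was added after its values were seen because it holds TGTCAT. Each line gives the summit with 50 bases to either side, 5' to 3' on the strand of the gene, from the ce11 genome (RefSeq WBcel235). Capitals mark TGTCAT or its reverse complement ATGACA, and ACGCGT in rpt-1.
rpt-2: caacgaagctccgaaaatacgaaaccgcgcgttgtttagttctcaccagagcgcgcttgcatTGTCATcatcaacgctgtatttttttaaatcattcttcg
pbs-1: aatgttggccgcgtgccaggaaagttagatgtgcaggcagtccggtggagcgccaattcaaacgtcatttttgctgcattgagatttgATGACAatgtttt
rpn-11: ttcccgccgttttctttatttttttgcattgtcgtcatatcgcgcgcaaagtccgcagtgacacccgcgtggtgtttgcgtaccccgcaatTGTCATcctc
rpn-12: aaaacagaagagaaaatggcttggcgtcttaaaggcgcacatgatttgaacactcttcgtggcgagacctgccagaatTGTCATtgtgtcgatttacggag
rpt-1: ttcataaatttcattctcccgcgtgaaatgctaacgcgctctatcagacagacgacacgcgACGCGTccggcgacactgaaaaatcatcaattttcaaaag
rpn-3: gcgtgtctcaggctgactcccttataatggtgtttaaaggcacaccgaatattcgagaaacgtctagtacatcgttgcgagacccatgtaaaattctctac
rpn-9: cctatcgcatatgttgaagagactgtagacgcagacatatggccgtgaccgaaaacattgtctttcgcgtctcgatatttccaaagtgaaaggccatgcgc
rpn-13: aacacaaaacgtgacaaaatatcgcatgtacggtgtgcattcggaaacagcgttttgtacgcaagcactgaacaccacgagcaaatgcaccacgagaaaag
rpn-2: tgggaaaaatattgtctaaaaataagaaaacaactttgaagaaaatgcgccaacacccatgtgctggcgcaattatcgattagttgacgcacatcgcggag
The windows lie at chrV:6017752-6017852 for rpt-2 (minus strand), chrIV:1709878-1709978 for pbs-1 (minus strand), chrII:4044511-4044611 for rpn-11 (minus strand), chrII:11652912-11653012 for rpn-12 (plus strand); chrV:11982460-11982560 for rpt-1 (minus strand), chrIII:8447088-8447188 for rpn-3 (plus strand), chrII:11239107-11239207 for rpn-9 (minus strand), chrIII:6342213-6342313 for rpn-13 (minus strand), chrIII:6198774-6198874 for rpn-2 (plus strand). None of the 9 windows holds CACGTG, and TGTCAT stands in 4 of them, at rpt-2, pbs-1, rpn-11 and rpn-12.

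Of all 16 member peaks, 0 had CACGTG in the 50 bp to either side of the summit (exact 95% upper limit 20.6%), against 10.2% of the 1982 optimal summits in any protein-coding promoter window. That share of all promoter peaks lies below the upper limit, so a lower share at proteasome genes was not detectable with 16 peaks. With whole peaks searched, the only CACGTG was at pas-5, centred 122 bp upstream of the summit. TGTCAT, searched on both strands as were all letter strings, lay within 50 bp of 4 of 16 summits (25%, exact interval 7.27 to 52.4%), against 4.34% of all promoter peaks. In windows moved by 500 bp to either side it was found in 1 of 32 (3.12%) for the member peaks and in 5.07% for all promoter peaks. Its centre lay 15 bp downstream of the summit at rpt-2, 31 bp at rpn-12, 41 bp at pbs-1 and 44 bp at rpn-11. The letters were on the strand of the gene in all but pbs-1. At pbs-1 and rpn-11 they lay outside the called peak, and at rpn-11 downstream of the gene's 5' end. The other SKN-1 form, TATCAT, was at 0 of 16 summits, against 3.38% of all promoter peaks, and TGCGCA at 0, against 5.3%. The strings CAGCTG and ACGCGT were at 1 summit each, those of rpn-5 and rpt-1, against 3.18% and 4.44%. In these 16 windows no 2 of the 6 letter strings occurred together. A match says only that these letters are present, and binding of SKN-1 was not measured.

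Among the ATPases of the base, which form the ring that unfolds proteins, 4 of 6 had an optimal summit. The peak of rpt-2 had the highest score of these, 104 in the pooled replicates, on a scale that the files do not state, at a distance of 133 bp upstream. The gene (WBGene00004502) spans positions 6016059 to 6017669 of chromosome V on the minus strand. Among the 30000 peaks of each relaxed list, which the authors made as input for the IDR step, it ranked 775 by score in replicate 1 and 782 in replicate 2, where 1 is the highest. For rpt-1 the score was 79.4, the summit lay 113 bp upstream, and the ranks were 1537 and 1120. The rpt-6 peak, 240 bp upstream with a score of 60.5, ranked 1849 and 2211. That of rpt-3, with a score of 48.8 and ranks of 2527 and 2432, lay 693 bp upstream, the farthest of all 16, and within an untranslated exon of the gene in front, chtb-2. The ranks of rpt-2 and rpt-3 thus nearly matched between the replicates.

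The remaining ATPase genes, rpt-4 and rpt-5, had no optimal summit in the window. At rpt-5 there was a relaxed summit at rank 6588 in the pooled replicates, 6573 in replicate 1 and 11629 in replicate 2. At rpt-4 the window was empty in every list, but an optimal peak lay in an intron 2384 bp downstream of the gene's 5' end. That summit, at position 43832 of chromosome II within rpt-4 (WBGene00004504, positions 42207 to 46216, minus strand), was 170 bp upstream of the start of a shorter annotated transcript of rpt-4. Its score was 86.7 and its ranks were 1406 and 960, so it stood among the higher peaks of the complex in both replicates. It also lay 75 bp upstream of the 5' end of nfyc-1, a gene for a subunit of the CCAAT-binding factor NF-Y, so the peak cannot be assigned to either gene alone.

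Of the 4 other base and ubiquitin receptor genes, rpn-2 and rpn-13 had optimal summits. Rpn2 is one of the large scaffold subunits of the base, and its gene had a peak of score 64.3, 360 bp upstream, at ranks 2674 and 1369. Rpn13 is a ubiquitin receptor. Its peak had a score of 75.3 and lay 335 bp upstream, at ranks 1237 and 1751. The other scaffold gene, rpn-1, stood just past the end of the optimal list, at pooled rank 4093 with a score of 31.1. The best summits in its window ranked 3606 in replicate 1 and 11502 in replicate 2. That of replicate 2 lay more than 100 bp from the pooled summit. The gene of the other ubiquitin receptor, rpn-10, had no summit in its window in any list. It starts 119 bp behind the mitochondrial ribosomal protein gene mrpl-9 on the same strand. An optimal summit of score 40.8 lay 1405 bp upstream of rpn-10 and 163 bp upstream of mrpl-9. It ranked 2154 in replicate 1 and 27145 in replicate 2, far apart. It also lay in the promoter window of kin-3, so it cannot be assigned to mrpl-9 alone.

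The lid, which holds the deubiquitinating enzyme Rpn11 in place, had optimal summits at 6 of the 9 lid genes that the symbol rule takes in. The highest score of any member was that of rpn-3, 125, with ranks of 430 and 926. Its summit was at position 8447138 of chromosome III, 215 bp in front of the gene (WBGene00004460, positions 8447353 to 8449346, plus strand). For rpn-9 the score was 92.6, the distance 238 bp and the ranks 1498 and 671. The gene of the deubiquitinating enzyme itself, rpn-11, had a score of 92.3 and ranks of 1179 and 861, with the summit 15 bp from the 5' end. The peak of rpn-5 lay nearest to its gene, 9 bp upstream, with a score of 58.8 and ranks of 2168 and 1928. Lower down the list were rpn-12, with a score of 41.2 and ranks of 2903 and 3624, and rpn-7, with 40.4 and ranks of 3501 and 5037. The rpn-7 peak had the lowest score of the 16 and ranked below the highest 3870 in replicate 2.

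Lid members without an optimal summit in the window were rpn-8, rpn-6.1 and rpn-6.2. Rpn8 is the inactive partner of Rpn11, and its gene had relaxed summits at pooled rank 4765 and at 4909 and 3891 in the replicates. The lid subunit Rpn6, which braces the core against the regulatory particle, is encoded by the paralogs rpn-6.1 and rpn-6.2. The window of rpn-6.1 held a relaxed summit in the pooled list alone, at rank 23650. At the same gene an optimal peak of score 45.7 lay in an intron, 634 bp downstream of the 5' end and 427 bp upstream of the start of a shorter transcript, at ranks 5736 and 1186. It was also 723 bp upstream of the 5' end of the divergent gene F57B9.1. At rpn-6.2 there was only a relaxed summit at pooled rank 18821, seen in replicate 2 at rank 14200 and not in the replicate 1 list. Counting the start of every annotated transcript, rpt-4 and rpn-6.1 joined, which made 14 of 19 regulatory particle genes and 18 of 33 members, against 13.9% of all protein-coding genes.

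In the beta rings, which carry the cutting sites, 2 of 7 genes had an optimal summit. The peak of pbs-1 (WBGene00003947, positions 1708814 to 1709745 of chromosome IV, minus strand), a gene for a catalytic subunit, had a score of 102 and lay 183 bp upstream, at position 1709928, with ranks of 1323 and 513. The peak of pbs-7 had a score of 75.0 and lay 124 bp upstream, with ranks of 1897 and 1106. The genes of the other catalytic subunits, pbs-2 and pbs-5, had relaxed summits at pooled ranks 4302 and 13648. The pbs-2 summit ranked 4590 in replicate 1 and 19861 in replicate 2. In the pbs-5 window the best summit of replicate 2, at rank 6593, lay more than 100 bp from the pooled summit. Replicate 1 had none there. For pbs-4 the pooled rank was 5326 and the replicate ranks 8155 and 5725, and for pbs-6 they were 6553, 5600 and 10987. These are ranks of the best summit in the window. At pbs-6 that of replicate 2 also lay more than 100 bp from the pooled summit. At pbs-3 replicate 1 had a summit of rank 2412, while the lists of replicate 2 and of the pooled replicates had none in the window. The replicates thus went apart at pbs-3 and pbs-5, each with a summit in 1 of them.

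Alpha ring genes, whose products form the gate of the barrel, had optimal summits at 2 of 7. The peak of pas-4 had a score of 76.9, lay 156 bp upstream and ranked 2257 and 663. The peak of pas-5 had a score of 46.4, lay 325 bp upstream and ranked 2204 and 4872. A further optimal peak stood 1126 bp upstream of pas-5, outside the window, with a score of 45.0. At pas-6 the relaxed summit ranked 11239 in the pooled list, 28492 in replicate 1 and 9333 in replicate 2. Single relaxed summits of replicate 2 lay at pas-3, with rank 4203, and at pas-1, with rank 19932. No list had a summit in the windows of pas-2 and pas-7, which with rpt-4 and rpn-10 made 4 members with none.

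**Figure D2:**
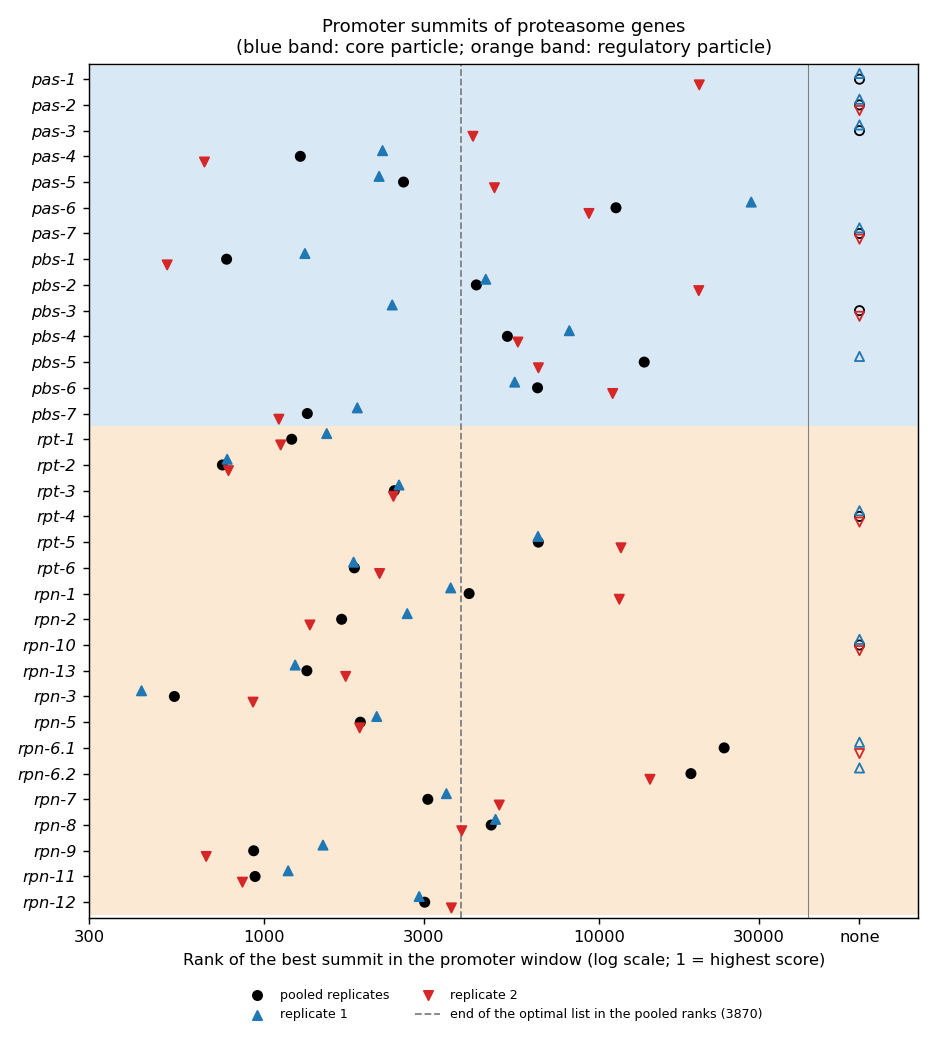
Rank by score (horizontal axis, log scale, 1 is the highest) of the best summit in the promoter window of each of the 33 members in the lists of the pooled replicates (black circles), replicate 1 (blue upward triangles) and replicate 2 (red downward triangles), with open symbols where a list has none. The 16 black circles left of the dashed line at 3870 are the optimal summits, 4 in the core particle and 12 in the regulatory particle.

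In the longer lists more members had a summit, and so did more of all genes. Of the 33 members, 26 had one in the pooled relaxed list (78.8%, against 40.9% of all protein-coding genes), with 9 of 14 in the core particle and 17 of 19 in the regulatory particle. In both replicate lists 23 had one (69.7%, against 27.8%). Of the 17 members without an optimal summit, 10 had a pooled relaxed summit, at ranks from 4093 to 23650. Of these, 6, namely rpn-1, pbs-2, rpn-8, pbs-4, pbs-6 and rpt-5, were in the pooled list when it was cut at 2 times the length of the optimal list. At that length 22 of all 33 members had a summit (66.7%, against 20.6% of all protein-coding genes).

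Each replicate alone gave a similar count. Among the 3870 highest peaks of replicate 1, summits lay at 18 of 33 members (5 core, 13 regulatory), against 12.3% of all genes, and among those of replicate 2 at 14 (3 core, 11 regulatory), against 12.4%. The 16 members of the optimal list were all among the 18 of replicate 1, which added pbs-3 and rpn-1. All 14 of replicate 2 were members of the optimal list, and pas-5 and rpn-7 were missing there. All 16 member peaks had a relaxed summit within 100 bp in both replicates, as had 96.1% of all promoter peaks. Of the 16, 14 (87.5%) were among the highest 3870 of both, against 71.2% of all promoter peaks. Ranks ran from 430 to 3501 in replicate 1 and from 513 to 5037 in replicate 2, and 7 of the 16 stood higher in replicate 1. Across these 16 peaks, which share libraries, Spearman's rho between the replicate ranks was 0.62, and it was 0.64 across the 1905 promoter peaks found in both. The larger of a peak's ranks was a median of 1.43 times the smaller, and at most 3.40 times, at pas-4.

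**Figure D3:**
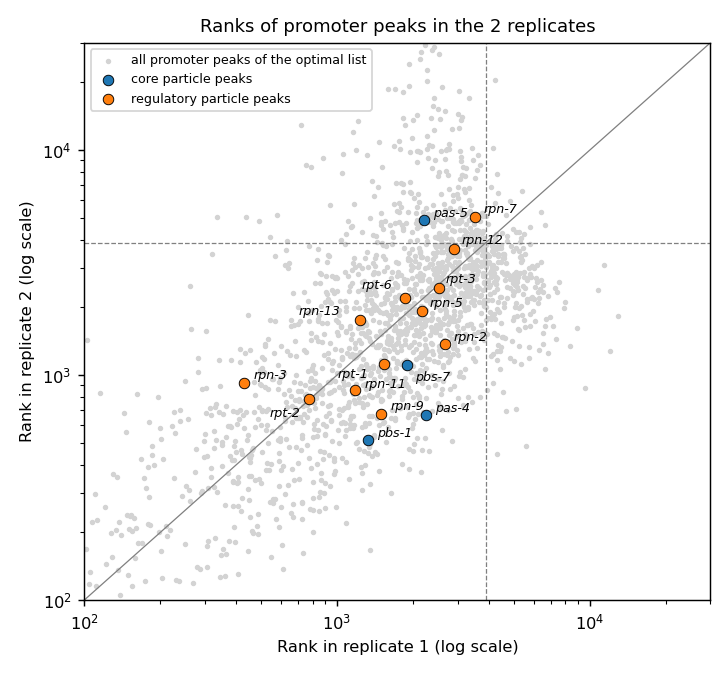
Rank in replicate 1 (horizontal axis) against rank in replicate 2 (vertical axis), both on log scales that start at 100, for the 4 core particle peaks (blue), the 12 regulatory particle peaks (orange) and all promoter peaks of the optimal list found in both replicates (grey). Dashed lines mark rank 3870, which 14 of the 16 member peaks meet in both replicates, while pas-5 and rpn-7 lie above it in replicate 2.

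The median pooled score of the member peaks was 75.2, with a range of 40.4 to 125. That of all 1982 promoter peaks was 61.9, with a range of 32.8 to 626. In the upper 50% of the optimal list by score were 11 of the 16, and 1068 of the 1982 promoter peaks. Of the 16, 5 (31.2%) were in the highest 25% of the optimal list by score, against 27% of all promoter peaks. No member had more than 1 optimal summit in its window, which was also rare over all genes, at 62 of the 2560 with a summit. All 16 summits lay upstream of the 5' end, and over all genes only 131 of 2623 pairs of a gene and a summit were downstream. The median distance was 199 bp upstream, against 235 bp over all genes, and 8 (50%) were within 200 bp, against 43.7% of all pairs. Only rpt-3 lay more than 500 bp upstream (6.25%, against 21%). Members were found on every autosome, and none was on chromosome X.

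Most of the 16 summits also lay in the window of another protein-coding gene, 10 of 16 (62.5%) against 30.3% of all promoter peaks. Of the 33 members, 20 (60.6%) had the 5' end of an opposite-strand gene within 1000 bp upstream and no same-strand gene ending within 500 bp, an arrangement of 17.5% of all protein-coding genes. In it, 10 of 20 members had an optimal summit, against 28.9% of all such genes. The background was thus higher there than over all genes, and the core particle, at 3 of 9, stood near it, while the regulatory particle had 7 of 11. Of the 8 members that start within 500 bp behind a same-strand gene, 3 had a summit, against 8.05% of all such genes. These 3 were rpt-3 behind chtb-2, rpn-11 behind K07D4.2 and rpn-13 behind C56G2.9. In front of the other 5, pas-1, pbs-3, pbs-5, rpn-6.2 and rpn-10, the genes were rpoa-12, ulp-2, K05C4.2, F59B2.15 and mrpl-9. Of these, mrpl-9 alone had an optimal summit in its own window, and it shares that summit with kin-3. Over all 8 front genes, 1 of 8 had an optimal summit, against 20.5% of all genes in that place. Of the remaining 5 members 3 had one, against 9.78% of such genes, namely pas-5, rpt-1 and rpt-6.

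At 9 of the 10 divergent pairs the summit lay between both 5' ends, and at 8 of the 10 it was nearer to the proteasome gene. The rpn-3 summit lay 229 bp upstream of hsp-110, a gene for a chaperone of the Hsp110 family. The summit of rpn-12 was 233 bp upstream of rad-23, whose product carries ubiquitinated proteins to the proteasome. Those of rpt-2 and rpn-5 were 168 bp upstream of aps-1, for an adaptor subunit of clathrin coats, and 285 bp upstream of the cohesin gene scc-1. The pas-4 summit was nearer to rpb-3, a gene for an RNA polymerase II subunit, at 121 bp. The rpn-7 summit lay 1 bp downstream of the 5' end of F49C12.9, in its untranslated exon, and 417 bp upstream of rpn-7. Of the others, the pbs-1 summit was shared with K08D12.3, that of pbs-7 with F39H11.1, that of rpn-2 with C23G10.7 and that of rpn-9 with T06D8.9. With each summit given only to the nearest 5' end, 14 of 33 members kept one (42.4%, against 9.64% of all genes), and pas-4 and rpn-7 lost theirs.

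**Figure D4:**
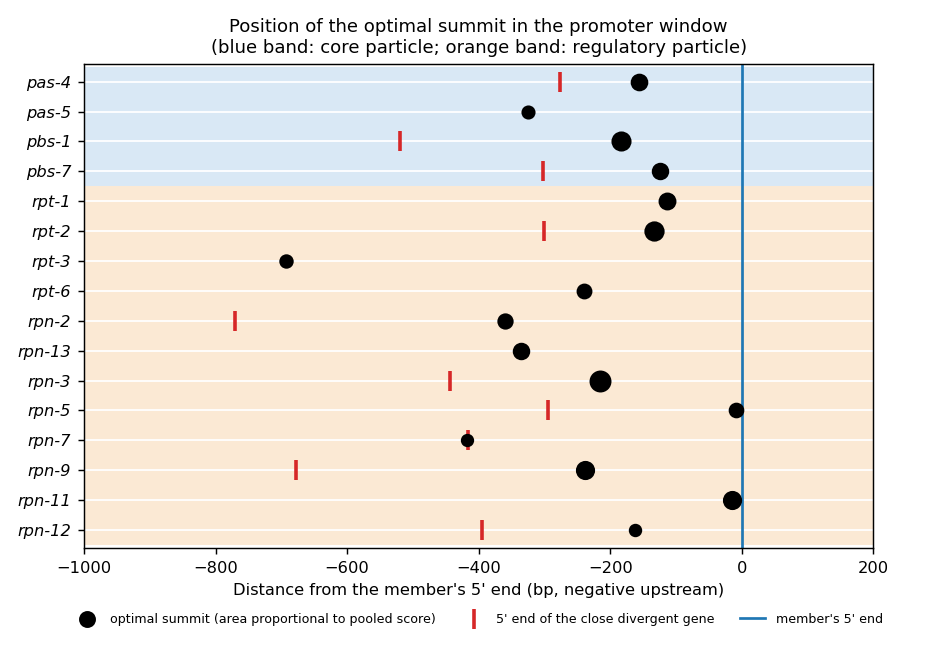
Position of the optimal summit relative to the member's 5' end (horizontal axis, bp, negative upstream; vertical line at 0) for the 16 members with one, with the area of each circle in proportion to the pooled score and red ticks at the 5' end of a close divergent gene. The summits lie between 9 and 693 bp upstream, and in 9 of the 10 divergent pairs between both 5' ends.

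Among 21 other genes of the pathway, chosen for their roles in feeding or regulating the proteasome, 8 had an optimal promoter summit (38.1%, exact interval 18.1 to 61.6%, against 12.8% of all genes). This list was chosen with earlier results of these data known, and the rad-23 peak is also counted at rpn-12. Its share is therefore a description and no independent support for the share of the members. The highest score was that of cdc-48.1, for the ATPase that extracts ubiquitinated proteins, at 333 and ranks of 60 and 42. The next was ubql-1, for a shuttle factor of the ubiquilin family, at 308 and ranks of 59 and 75. The gene of WDR-23, which targets SKN-1 for degradation, had 184 and ranks of 144 and 679. These 3 scores were above that of any proteasome subunit gene. Lower scores were those of the ubiquitin fusion gene ubq-2 (87.2), aip-1 (74.4), usp-14 (60.9), rad-23 (41.2, the peak it shares with rpn-12) and ubh-4 (38.8). Of these, usp-14 and ubh-4 encode deubiquitinating enzymes that bind the proteasome. None of the 8 peaks held CACGTG within 50 bp, against 10.2% of all promoter peaks, and with 8 peaks a lower share was not detectable. Neither skn-1 nor the genes of its processing enzymes, ddi-1 and png-1, had an optimal summit in the window. Most of the 21 genes, and most of all protein-coding genes, had none either. The COP9 signalosome, a complex built like the lid, had one at 0 of 6 annotated genes (csn-1 to csn-6), with an exact 95% upper limit of 45.9%. The 12.8% of all genes lies below that limit, so a lower share was not detectable with 6 genes.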

How the data were processed

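ChIP-seq peak lists of eGFP-tagged MDL-1 from whole L1 larvae were analysed, in 1 group of 2 biological replicates. Per the labels, libraries were size-selected to 150 to 350 bp. As the inventories deposited with the files state, the authors mapped to ce11, made relaxed lists for each replicate and for the pooled replicates, and derived the optimal list from these by IDR. They list a control beside the pooled calls and none beside those of single replicates. No aligner, peak caller or IDR cut-off was given in the sources read here. The score deposited by the authors for each peak has no stated scale, so it was used only to rank and select peaks within a list. The optimal list was the 3870 highest pooled peaks.

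Summits, 1-based in ce11, were set against Ensembl release 115 (WBcel235); no peak ended beyond its chromosome. Peaks and genes are not replicates, so no p-value was computed, and counts stand beside the same share over all protein-coding genes with Clopper-Pearson intervals. The members and lists were chosen with earlier results of these data known. Every member is accounted for; of the other lists, genes with an optimal promoter summit are named, as are genes sharing a member's summit or lying directly in front of it. Further peaks outside the windows, nfyc-1, kin-3, and the pathway genes skn-1, ddi-1 and png-1 without a summit were added after their values were seen. Planted summits and letters were recovered by the same functions when tested on simulated data. Python 3.11.15 and scipy 1.17.1 were used. Alternatives covered windows, list lengths, each replicate alone and matching distances. The ce10 lists were not used.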

Additional observations from a re-analysis of the deposited data

How the results depend on the processing

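Of 33 alternatives computed for 6 results, 29 gave a count within 1.5 times the reported one or the same median. The exceptions came from longer lists or a wider search. With the pooled list cut at 2 times the length of the optimal list, 7 of 14 core particle genes had a promoter summit (20.6% of all genes), and with all pooled relaxed peaks 9 had one, as had 26 of the 33 members (40.9% of all genes). With the whole peak searched, 1 member peak held CACGTG. Longer lists count more peaks by construction. Most member peaks are longer than the window searched around the summit, but those of pbs-1, rpt-2 and rpn-3 are shorter. Leaving out a replicate gave 14 to 18 members, 3 to 5 of them in the core particle and 11 to 13 in the regulatory particle. With only the higher-scoring 50% of the optimal list, 11 members had a summit (3 core, 8 regulatory; 7.16% of all genes). No paired analysis was possible because there is 1 group. The 2 replicates allow no test of the spread between animals, and the unknown depth leaves a missing summit as one below the end of a list.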

Other observations

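Over the whole promoter windows, CACGTG was present in 1 of the 16 members with an optimal summit and in 4 of the 17 without, or 15.2% of all members, against 18.4% of all protein-coding genes and 25.5% of those with an optimal summit. TGTCAT was present in 9 of the 16 and 11 of the 17, or 60.6% of members, against 47.8% of all protein-coding genes and 44.2% of those with an optimal summit. 

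A peak with CACGTG lay 1287 bp upstream of rpt-6, beyond its window and 119 bp upstream of his-72, a gene for a histone of the H3.3 type. Its pooled score was 56.4, with ranks of 1922 in replicate 1 and 1855 in replicate 2, close to those of the peak in the rpt-6 window.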
